A study of Caenorhabditis elegans with 2 samples.

Results

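The 39 genes described here act in the excretory system of Caenorhabditis elegans or encode subunits of the vacuolar proton pump (V-ATPase), used in many tissues. They were taken by gene name from a given list, 20 of them V-ATPase genes and 19 others, and all 39 were found among the 19973 nuclear protein-coding genes of assembly WBcel235, which ce11 also names. The study mapped binding of CEH-6, a POU homeodomain factor known for its role in the excretory canal cell, by chromatin immunoprecipitation and sequencing. Its 2 samples are biological replicates 1 and 2 of 1 group: late embryos of strain OP748, pooled male and female, obtained by egg bleaching and labelled 3.3 hours old, a time whose starting point is not stated. Both carry the transgene wgIs748, a copy of ceh-6 tagged with TY1, EGFP and 3xFLAG that also brings unc-119(+), in an unc-119(ed3) and VC2010 background. The antibody was against GFP. There is no untagged or mock group, so no group of worms could be set against another, and each gene was set against all other nuclear protein-coding genes.

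The excretory canal is a single tubular cell, joined to a duct and a pore cell, that regulates salt and water in the worm. The V-ATPase pumps protons across membranes: its V1 sector splits ATP, and its Vo sector carries protons through the membrane. V-ATPase subunits are used in many tissues and are abundant in the canal, while EXC proteins, spectrin, ezrin family proteins and intermediate filaments hold the tube in shape.

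For each gene, the window ran from 5000 bp upstream of its outermost transcript start to the end of the gene, and a region counted when its summit lay inside. The authors deposited a signal for each region, relative to a control, in 3 lists of 30000 regions (both replicates pooled, replicate 1, replicate 2). Regions were ranked here by that signal within each list, with rank 1 the strongest. The strongest pooled regions form the deposited set of IDR peaks, named for the irreproducible discovery rate, which weighs agreement between replicates. The set equals a cut in pooled signal, so a peak in it need not rank as high in each replicate. The 3 lists were the input to the IDR step and hold background as well as peaks. A region beyond the IDR set did not pass that step and is not a called peak. Pooled signal was 1483.5 at rank 1, 105.7 at the last region of the IDR set, 105.57 at the next region, and 67.6 at rank 3000, the limit used below for giving a gene with all its values. Replicate ranks are those of the region over the pooled summit unless a whole window is named. Read depth is unknown, and signals are compared only within a list. The embryos were processed whole, so strong binding in few cells and weak binding in many cells cannot be told apart.

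Only 3 of the 39 genes (7.69%) had an IDR peak in the window, against 5.67% of the other 19934 genes, which is a share near the background. At wider limits of the pooled list the shares were further apart: 9 (23.1%) had a pooled region of rank 1 to 1500, against 10.7% of other genes, and 14 (35.9%) one of rank 1 to 3000, against 19.3%. The count at rank 1500 was 5 in replicate 1 alone (12.82%, against 10.6%), a share near the background, and 7 in replicate 2 alone (17.95%, against 10.85%). At rank 3000 it was 11 in each replicate alone (28.21%, against 19.22% in replicate 1 and 19.43% in replicate 2). The V-ATPase genes supplied 9 of these 14 (9 of 20 genes, 45%) and the other canal genes supplied 5 of 19 (26.3%). None of the 39 genes was reached by the 370 strongest pooled regions, which reached 2.975% of other genes. All 39 had some region in the pooled list, against 78.8% of other genes. The median best pooled rank was 6231 for the 39 genes and 11146.5 for the others when a gene with no region was placed last, or 7700 for the others that had a region. Counts over genes of this kind are descriptions of 1 experiment, and no test was made on the list.

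**Figure D1:**
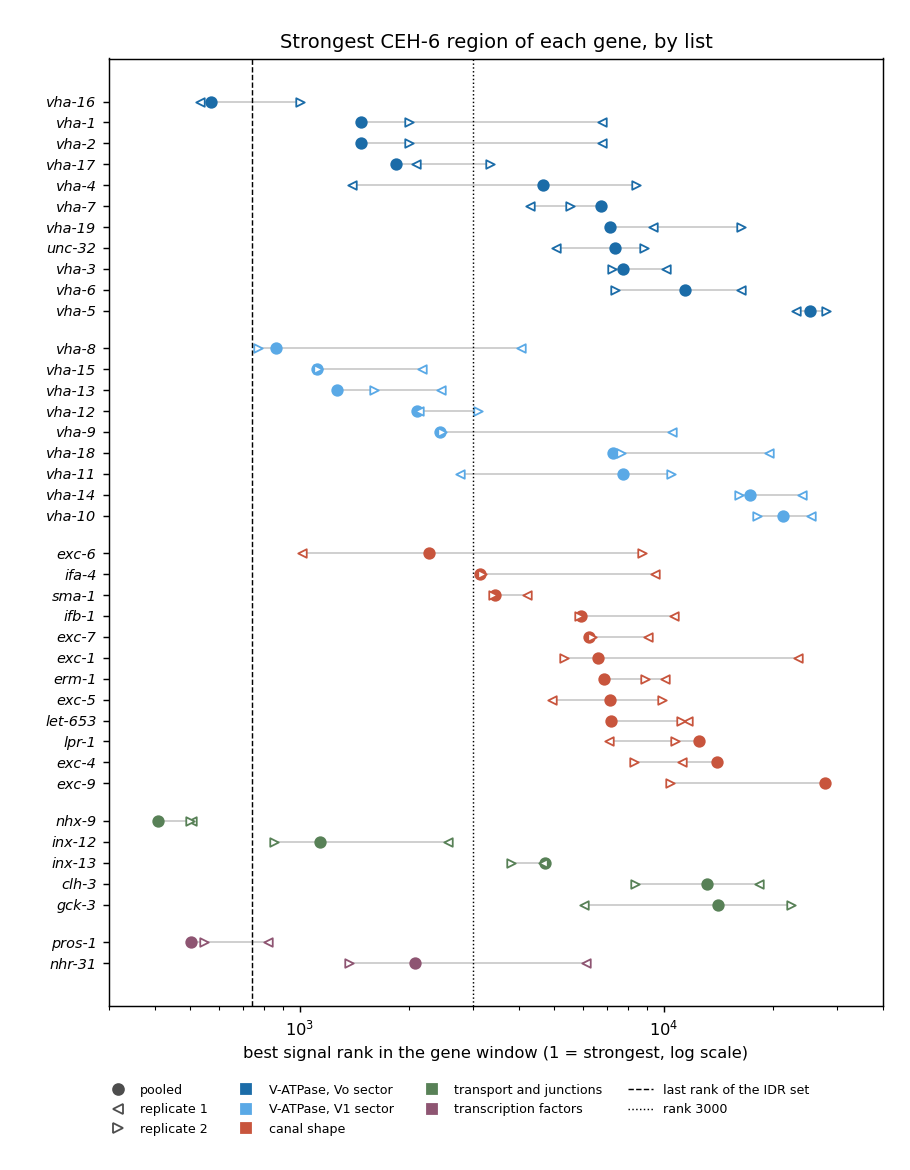
Best signal rank of each of the 39 genes (log axis, 1 = strongest) in the pooled list (filled circle), replicate 1 (left triangle) and replicate 2 (right triangle), grouped by role. The dashed line is the last rank of the IDR set and the dotted line rank 3000; nhx-9, pros-1 and vha-16 lie left of the dashed line in the pooled list.

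Window length differed between the groups. The median window was 9175 bp for the 39 genes and 7025.5 bp for the others. It was 11467 bp for the 19 canal genes and 6879.5 bp for the 20 V-ATPase genes, so only the canal genes had windows longer than the other genes in the median. Among other genes, the share with a pooled region of rank 1 to 3000 was 13.8% for windows up to 6056 bp and 33.9% for windows of 9315 bp or more. Of the V-ATPase and canal genes, 3 of 5 had one in the shorter class and 3 of 17 in the longer. The part of window length in these counts was not tested further than by the next count. Over the 5000 bp upstream of the first transcript start alone, a stretch of equal length for every gene, 12 of the 39 genes (30.8%) had a region of rank 1 to 3000, against 14.7% of other genes. All 9 V-ATPase genes and 3 of the 5 others were among these 12.

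**Figure D2:**
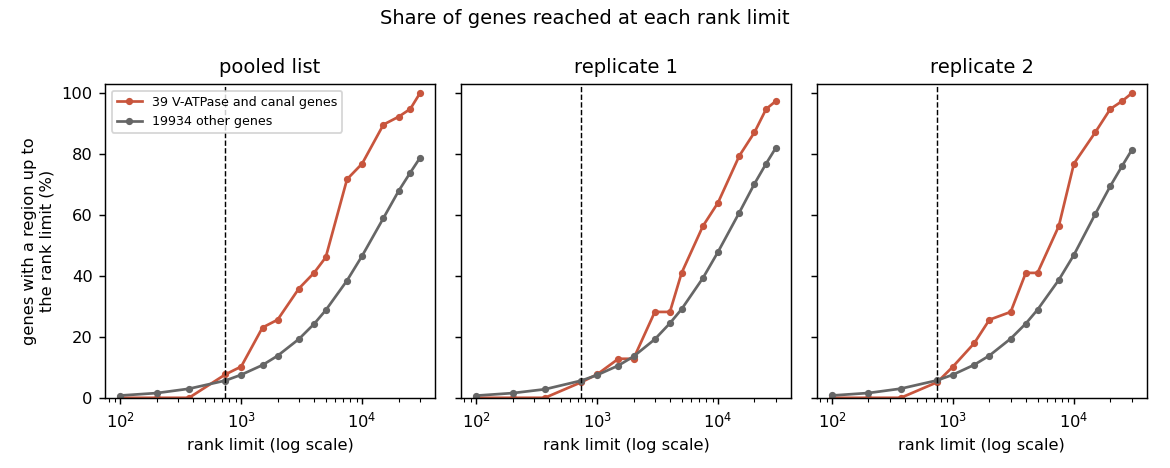
Percent of genes with at least 1 region up to the rank limit on the x axis (log scale), for the 39 V-ATPase and canal genes and the 19934 other genes, in each list. The dashed line is the last rank of the IDR set, where the percentages are 7.69 and 5.67 in the pooled list, and at rank 3000 they are 35.9 and 19.3.

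The replicates placed several genes differently. When each replicate list was limited to as many regions as the IDR set holds, replicate 1 placed one at 2 of the 39 genes (5.13%, against 5.65% of other genes), nhx-9 and vha-16. Replicate 2 also placed one at 2 genes (5.13%, against 5.74%), nhx-9 and pros-1. The only gene with such a region in each replicate was nhx-9 (2.56% of the 39, against 4.01%). With 3000 regions of each replicate, 6 genes had one in both (15.4%, against 11.4%): nhx-9, pros-1, inx-12, vha-16, vha-15 and vha-13. The 14 genes shared 13 distinct regions of rank 1 to 3000, of which 6 (46.2%) were also within rank 3000 in both replicate lists at the same summit. Of the other 2964 nuclear regions of those ranks, 41.1% were. Replicate 2 gave the better rank at 9 of the 13 summits (69.2%), against 55.6% of the other regions found in both replicate lists.

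The strongest pair of regions lay on tRNA genes, and their sequences are shown for that reason. In both, capitals mark the exons of the tRNA gene, on the strand of the tRNA (RefSeq sequence of WBcel235). The nhx-9 line is chrIV:11928475-11928675, minus strand, and the pros-1 line is chrIII:8069363-8069563, plus strand, each reaching 100 bp to both sides of the summit.
nhx-9 upstream region: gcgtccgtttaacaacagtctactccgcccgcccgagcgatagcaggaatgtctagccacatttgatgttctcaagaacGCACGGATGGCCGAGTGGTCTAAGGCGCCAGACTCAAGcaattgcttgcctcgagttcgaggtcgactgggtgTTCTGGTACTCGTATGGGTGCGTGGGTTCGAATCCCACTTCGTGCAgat
pros-1 intron region: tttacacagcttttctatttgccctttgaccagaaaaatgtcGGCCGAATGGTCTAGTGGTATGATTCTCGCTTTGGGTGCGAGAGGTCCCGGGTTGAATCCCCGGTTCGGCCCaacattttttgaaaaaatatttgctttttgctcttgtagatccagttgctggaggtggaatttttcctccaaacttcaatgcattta

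The nhx-9 gene encodes a sodium/proton exchanger. Its region (chrIV:11928370-11928779) had rank 408 and signal 139.88 in the pooled list, rank 506 and signal 53.9 in replicate 1, and rank 501 and signal 78.7 in replicate 2, so both replicates placed it at nearly the same rank. The summit lay 2297 bp upstream of the transcript start, between protein-coding genes, and inside ZK822.t1, a leucine tRNA gene of 2 exons (chrIV:11928478-11928596). The exon sequence of that tRNA occurs in 6 of the 612 nuclear tRNA genes, and how reads that match several copies were handled is not stated in the files or labels.

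The pros-1 gene encodes the worm's Prospero homeodomain factor. Its region (chrIII:8069258-8069667) had rank 502 and signal 125.65 in the pooled list, rank 817 and signal 45.6 in replicate 1, and rank 545 and signal 75.5 in replicate 2. The summit was in an intron, 2174 bp downstream of the start, and inside the proline tRNA gene K12H4.t1 (chrIII:8069405-8069476), whose sequence occurs once among the 612. Of the 3 IDR peaks in the windows, 2 thus had a tRNA gene within 100 bp, against 25.9% of the 663 IDR peaks found only in windows of other genes. The part of the tRNA genes in these 2 results was not tested.

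The V-ATPase regions of rank 1 to 3000 lay mostly close upstream of a transcript start. The 4 shown here are those with a sequence of the kinds marked below within 100 bp of the summit. The other V-ATPase regions of those ranks had none. Capitals mark a GA repeat (GAGAGAGA, or TCTCTCTC on the other strand) in the vha-8 and vha-15 windows. In the vha-1 and vha-12 windows they mark a match, with 1 mismatch, to ATGCAAAT. That octamer is the classical binding sequence of POU factors, and it was searched on both strands. The vha-8 window also holds a match with 1 mismatch, which is not in capitals. All are on the plus strand, which is also the strand of the gene, and reach 100 bp to each side of the summit: chrIV:6790517-6790717, chrX:2237518-2237718, chrIII:9780899-9781099 and chrX:4190603-4190803, in the order of the lines.
vha-8 promoter region: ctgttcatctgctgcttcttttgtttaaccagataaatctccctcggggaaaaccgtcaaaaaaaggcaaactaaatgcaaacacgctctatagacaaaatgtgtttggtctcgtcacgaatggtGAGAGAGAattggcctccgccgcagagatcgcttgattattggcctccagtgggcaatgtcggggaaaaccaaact
vha-15 promoter region: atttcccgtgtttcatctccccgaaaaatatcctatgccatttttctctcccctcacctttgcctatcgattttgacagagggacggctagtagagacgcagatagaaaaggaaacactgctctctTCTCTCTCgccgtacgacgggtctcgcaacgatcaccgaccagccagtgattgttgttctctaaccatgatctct
vha-1 promoter region: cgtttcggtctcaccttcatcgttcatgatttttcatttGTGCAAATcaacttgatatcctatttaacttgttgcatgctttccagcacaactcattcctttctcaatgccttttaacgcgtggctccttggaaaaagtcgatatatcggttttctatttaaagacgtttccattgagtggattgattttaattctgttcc
vha-12 promoter region: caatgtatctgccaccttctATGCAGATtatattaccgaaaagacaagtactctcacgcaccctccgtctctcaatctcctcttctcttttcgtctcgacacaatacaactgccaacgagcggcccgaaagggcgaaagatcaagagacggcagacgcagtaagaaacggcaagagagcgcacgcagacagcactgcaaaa

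Among the V1 subunits, which form the ATP-splitting head and stalk, 5 of 9 genes (55.6%) had a pooled region of rank 1 to 3000, against 19.3% of other genes. All 5 summits lay less than 1000 bp upstream of the gene's own start, where 6.23% of other genes had one. In single replicates, 3 of 9 (33.3%, against 5.7%) had such an upstream region in replicate 1 and 4 of 9 (44.4%, against 5.94%) in replicate 2. The vha-8 gene (subunit E) had its region 457 bp upstream (chrIV:6790412-6790821), at pooled rank 859 with signal 99.5. It had rank 4048 and signal 29.5 in replicate 1, and rank 767 and signal 65.6 in replicate 2, so it was within rank 3000 in replicate 2 alone. The summit was nearer to the start of C17H12.2, a gene on the opposite strand whose start lay 129 bp away. The region of vha-15 (subunit H), 293 bp upstream (chrX:2237413-2237822), had pooled rank 1116 and signal 91.3, rank 2175 and signal 34.7 in replicate 1, and rank 1127 and signal 57.5 in replicate 2. The region of vha-13 (subunit A, which holds the catalytic site), 547 bp upstream (chrV:14350957-14351366), had pooled rank 1271 and signal 87.0, rank 2785 and signal 32.6 in replicate 1, and rank 1603 and signal 51.8 in replicate 2. Both lay within rank 3000 in each replicate.

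The remaining V1 regions of this kind were weaker or held by 1 replicate. The region of vha-12 (subunit B), 391 bp upstream (chrX:4190498-4190907), had pooled rank 2101 and signal 74.8, rank 2124 in replicate 1 and rank 3098 in replicate 2. The region of vha-9 (subunit F), 238 bp upstream (chrII:10303746-10304155), had pooled rank 2426 and signal 71.5, rank 10575 in replicate 1 and rank 2462 in replicate 2. It is the last of the 14 genes inside rank 3000. The other V1 genes were lower: the best pooled rank was 7267 for vha-18 (subunit H), 7742 for vha-11 (subunit C), 17304 for vha-14 (subunit D) and 21311 for vha-10 (subunit G). For vha-11, replicate 1 alone held a stronger region elsewhere in the window, at rank 2752.

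Among the Vo genes and their accessory subunit, 4 of 11 (36.4%) had a pooled region of rank 1 to 3000, against 19.3% of other genes. For 1 of the 11 (9.09%), vha-1, the summit was within 1000 bp upstream of its own start, against 6.23%, which is near the background. The proteolipid genes vha-1 and vha-2, which lie in tandem, shared a region (chrIII:9780794-9781203), 255 bp upstream of vha-1 and 1165 bp upstream of vha-2. It had pooled rank 1478 and signal 82.8, rank 6772 and signal 25.5 in replicate 1, and rank 1996 and signal 48.4 in replicate 2, and so was within rank 3000 in replicate 2 alone. The region in the window of vha-17 (subunit e, chrIV:9319870-9320279), 1726 bp upstream, was nearer to the start of nemt-1 on the opposite strand, 636 bp away. It had pooled rank 1843 and signal 77.6, rank 2089 in replicate 1 and rank 3340 in replicate 2.

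The IDR peak in a V-ATPase window was that of vha-16 (subunit d), on chromosome I from 5084576 to 5084985. It had pooled rank 573 and signal 118.71, rank 533 and signal 52.9 in replicate 1, and rank 1004 and signal 59.7 in replicate 2, so it was within the size of the IDR set in replicate 1 but not in replicate 2. The summit lay 2502 bp upstream of vha-16 and 1529 bp upstream of kin-32, a gene on the opposite strand that encodes a focal adhesion kinase family protein. Assigned to the nearest start, this peak belongs to kin-32.

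The other 7 Vo genes had best pooled ranks from 4663 to 25293: vha-4 (subunit c'') at 4663, vha-7 (subunit a) at 6753, vha-19 (accessory subunit) at 7120, unc-32 (subunit a) at 7379, vha-3 (subunit c) at 7742, vha-6 (subunit a) at 11441 and vha-5 (subunit a) at 25293. The vha-4 region, 165 bp upstream of vha-4 and 135 bp upstream of T01H3.5 on the opposite strand, ranked 1391 in replicate 1, while no region of replicate 2 covered its summit. The 4 genes for subunit a, which are expressed in different tissues, all had a best pooled rank beyond rank 3000. Most other genes also had no region of rank 1 to 3000, as 19.3% of them had one. The vha-5 gene, whose product is known from the apical surface of the canal, was the lowest of the V-ATPase genes in the pooled list and in replicate 2, where its best rank was 27980. In replicate 1 its best rank was 23103, and vha-14 at 23974 and vha-10 at 25408 were lower.

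Counted by their own promoter, 6 of the 20 V-ATPase genes (30%) had a pooled region of rank 1 to 3000 with its summit 1 to 1000 bp upstream of a transcript start of that gene, against 6.23% of other genes. These were vha-1, vha-8, vha-9, vha-12, vha-13 and vha-15. In replicate 1 the count was 4 of 20 (20%, against 5.7%), made up of vha-4, vha-12, vha-13 and vha-15. In replicate 2 it was 5 of 20 (25%, against 5.94%), made up of vha-1, vha-8, vha-9, vha-13 and vha-15. The replicates thus shared vha-13 and vha-15. Among the other 19 genes the count was 1 in each of the 3 lists (5.26%), for inx-12. No V-ATPase gene had an IDR peak there, against 2.13% of other genes. This count was chosen after the positions had been seen, so its height above the background is not independent evidence of anything particular to V-ATPase genes.

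**Figure D3:**
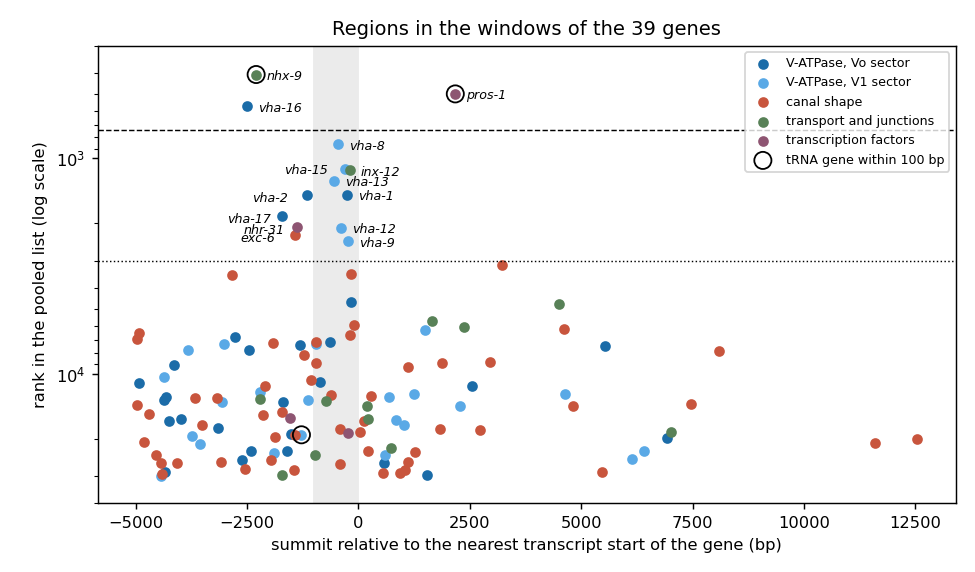
Every pooled region in the 39 windows, by its distance from the gene's nearest transcript start (x, bp, negative upstream) and its rank (y, log scale, strongest at the top), coloured by role; circles mark a tRNA gene within 100 bp, and the grey band the 1000 bp upstream of a start. Between the dashed line (last rank of the IDR set) and the dotted line (rank 3000), 7 of the labelled points lie in the band, and both circled points above the dashed line lie outside it.

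Of the genes for canal shape, 1 of 12 (8.33%) had a pooled region of rank 1 to 3000, against 19.3% of other genes. That gene was exc-6, a formin that acts on actin and microtubules: its region (chrIII:1101579-1101988), 1424 bp upstream, had pooled rank 2273 and signal 72.9, rank 1016 in replicate 1 and rank 15258 in replicate 2, so it was within rank 3000 in replicate 1 alone. Just outside the limit were ifa-4, an intermediate filament gene, at 3137, and sma-1, the beta-heavy spectrin gene, at 3435. The sma-1 region lay 171 bp upstream of its start. The rest had best pooled ranks of 5929 for ifb-1 (intermediate filament), 6231 for exc-7 (ELAV family RNA-binding protein), 6611 for exc-1 (GTPase), 6882 for erm-1 (ezrin family), 7124 for exc-5 (guanine exchange factor) and 7190 for let-653 (mucin-like protein of the tube lumen). The lowest were lpr-1 (lipocalin) at 12546, exc-4 (CLIC family) at 13986 and exc-9 (LIM domain protein) at 27829. No region of replicate 1 lay in the exc-9 window. The median best pooled rank of these 12 genes was 6746.5, against 2426 for the 9 V1 genes and 6753 for the 11 Vo genes.

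Of the 5 genes for transport and cell junctions, 2 (40%) were within rank 3000, nhx-9 and inx-12, against 19.3% of other genes. The region of inx-12, an innexin that forms gap junctions, was on chromosome I from 3759020 to 3759429, 186 bp upstream of its start, with pooled rank 1137 and signal 90.7, rank 2560 in replicate 1 and rank 849 in replicate 2. Its neighbour inx-13, also an innexin, had a best pooled rank of 4731. The chloride channel gene clh-3 was at 13164 and gck-3, the kinase known to regulate CLH-3, at 14084. Both transcription factor genes were within rank 3000, against 19.3% of other genes. Beside pros-1, this was nhr-31, a nuclear receptor known to regulate V-ATPase genes in the canal, whose region (chrIV:8027204-8027613) was in an intron, 1372 bp upstream of the nearest of its own transcript starts. It had pooled rank 2081 and signal 75.1, rank 6137 in replicate 1 and rank 1370 in replicate 2. The region was thus within rank 3000 in replicate 2 alone. Neither transcription factor gene had a region of those ranks in the 5000 bp upstream of its first transcript start, against 14.7% of other genes.

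In all, the 39 windows held 125 distinct pooled regions, or 3.34 per 10 kb of window, against 3.04 per 10 kb for other genes. Promoters (1 to 1000 bp upstream of any protein-coding transcript start) held 29 of the 125 summits (23.2%), against 26.6% of the 27998 regions found only in other windows. Among regions of rank 1 to 3000 the promoter share was 8 of 13 (61.5%), against 38.3%, and none of the 3 IDR peaks was in a promoter, against 51.1%. Of the 125 summits, 3 had a tRNA gene at most 100 bp away (2.4%, against 1.2%). None had a snoRNA, snRNA, rRNA or miRNA gene as close, against 0.729%.

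The exact octamer ATGCAAAT was within 100 bp of 1 of the 125 summits (0.8%), against 1.84% of regions in other windows. That region was a weak one, at rank 23013 in a coding exon of lpr-1. None of the 13 regions of rank 1 to 3000 had an octamer within 100 bp, against 2.27%, and within 500 bp of the summit it was found at nhx-9 and inx-12 (15.4%, against 8.28%). With 1 mismatch allowed, 4 of the 13 had a match (30.8%, against 24.6%): pros-1, vha-8, vha-1 with vha-2, and vha-12. The GA repeat GAGAGAGA, on either strand, was at 2 of the 13 (15.4%, against 8.07%), those of vha-8 and vha-15, and a CA repeat (CACACACA or ACACACAC, either strand) at 1, that of inx-12 (7.69%, against 9.76%). A match to such letters is a description of the window and not a site. Base composition moved with rank: the median GC content of the 201 bp windows was 45.8% for the 13 regions and 47.3% for the other regions of those ranks, and 40.8% and 42.3% over all ranks.

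A wider list of 32 genes, most of them for canal outgrowth, lumen formation and the duct and pore, was counted in the same way. It also held vha-20, a V-ATPase gene outside the main list, with a best pooled rank of 13762. Of the 32 genes, 11 (34.4%) had a pooled region of rank 1 to 3000, against 19.3% of genes outside the main list. An IDR peak was found for 1 (3.12%), against 5.67%. The median window was 10738.5 bp for the 32 genes, against 7025.5 bp. Over the 5000 bp upstream of the first transcript start alone, 5 of the 32 (15.6%) had a region of rank 1 to 3000. The share of genes outside the main list was 14.7%, so that count was near the background. The IDR peak was that of unc-53, a gene for the outgrowth of canals and axons, the last of the set in pooled rank, with rank 722 in replicate 1 and 952 in replicate 2. It was followed by par-3 at 848 and pkc-3 at 890, both for cell polarity. In the gene's own promoter, 2 of the 32 (6.25%) had a region of rank 1 to 3000, against 6.23% of genes outside the main list. Outside both lists, ceh-6 itself had a best pooled rank of 273, and the canal aquaporin gene aqp-8 had 7954. The embryos also carried the tagged ceh-6 copy of wgIs748, and its part in the rank of ceh-6 was not tested.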

How the data were processed

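The text deposited beside the lists says that the authors called regions on each replicate and on both together, each against 1 control, on assembly ce11, and derived the IDR set from those lists. The value used is the deposited signal of each region, made by the authors relative to the control on a scale that is not stated. Summits came from the other column used, the deposited offset of the summit from the region start. Aligner, caller and read filters: not given in the sources used here. Read depth is unknown.

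Computed here: ranks by signal within each list, and windows on the Ensembl release 115 annotation of WBcel235 (Python 3.11.15, pandas 2.3.3). Sequence and tRNA names came from RefSeq. Every IDR peak equalled one of the same number of strongest pooled regions in coordinates and signal. Mitochondrial genes were left out. Summits took the first class that applied of promoter, 5' UTR, coding exon, 3' UTR, intron and intergenic. Many worm transcript starts are trans-splice sites, so true starts can lie upstream. Genes with an IDR peak or a rank up to 3000 were described with values, and the rest by role. The window code was tested on simulated data. The genes and lists were chosen with earlier results of these data known. With 1 group and no test, replicates serve as a check on each rank.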

Additional observations from a re-analysis of the deposited data

How the results depend on the processing

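The number of genes with an IDR peak, 3 as reported, rested on few regions. It was 1 with windows starting 2000 bp or 1000 bp upstream (against 3.81% and 3.11% of other genes), 0 with the 370 strongest regions (against 2.97%), 9 with the 1500 strongest (against 10.7%) and 1 without regions near small RNA genes (rRNA, snRNA, snoRNA and tRNA genes at most 100 bp away; against 3.84% of other genes), which leaves vha-16. Each replicate alone gave 2. The count with a top region in both replicates, 1 as reported, was 3 with 1500 regions (against 6.52%), 6 with 3000 (against 11.4%) and 0 with windows from 1000 bp upstream (against 2.12%). The median best rank, 6231 as reported, was 7120 with 2000 bp and 7475 with 1000 bp upstream, 10916 by the nearest start and 6753 without regions near small RNA genes. In replicate 1 alone it was 6772 and in replicate 2 alone 6350. In each of these settings it was better than the median of other genes, which ran from 10697 to 24269.5. In those medians genes with no region were placed last. Among other genes that had a region, the median in the main setting was 7700. The octamer count of 0 among the 3 IDR peaks was 1 within 500 bp and 1 with a mismatch. Among IDR peaks found only in windows of other genes the shares were 7.84% and 22.5%. The tRNA count of 2 was the same with 500 and 2000 bp, against 26.2% and 27.9%.

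A further pair of counts and their alternatives were chosen after seeing the data. The 14 genes with a region of rank 1 to 3000 were 9 with windows from 1000 bp upstream (against 11% of other genes) and 11 in each replicate. The 6 V-ATPase genes with such a region in their own promoter were 0 with the IDR set alone (against 2.13%), and 4 and 5 in the replicates. The cause of these changes was not tested.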

Other observations

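The V-ATPase region nearest to a tRNA gene stood in the window of vha-9, where 3 regions of the pooled list were found. A weak one, at rank 19219 in the pooled list and 18475 in replicate 1 and covered by no region of replicate 2, lay 18 bp from the proline tRNA gene ZK970.t2, whose sequence occurs in 24 of the 612 nuclear tRNA genes. The region close upstream of vha-9, at rank 2426, was 820 bp from the nearest tRNA gene. In the vha-13 window, which held 7 regions, replicate 1 had its best region at rank 2451 in a coding exon, 1492 bp downstream of the start, and no region of replicate 2 covered that summit. Of the 125 regions in the 39 windows, 41 were covered by no region of replicate 1 and 29 by none of replicate 2. The same shares were not counted for regions in other windows, so these counts cannot be called particular to the 39 genes. Among regions of rank 1 to 3000, all 13 were covered in both replicate lists, as were 2826 of the other 2964 nuclear regions. Of the same 125 regions, 3 lay in the windows of 2 of the genes at once.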
